A study of Arabidopsis thaliana with 27 samples.

Results

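Class III peroxidases are secreted plant heme enzymes, and 60 of their genes in Arabidopsis are described here across the cell types and developmental stages of the root. The genes were taken by locus from a family list that leaves out the root hair, endodermal and xylem peroxidases treated as markers of those cells. A gene counted as measured where the array held a probe set, the group of oligonucleotides that reports 1 transcript, assigned to that gene alone. Of the 60 genes, 44 were measured, among 22746 probe sets tested in all and 13333 genes with a probe set of their own. Another 7 were represented only by probe sets assigned to several genes: AT2G18140, AT2G18150, AT2G38380, AT2G38390, AT3G17070, AT4G37520 and AT4G37530. The other 9, AT1G05240, AT1G05250, RCI3 (AT1G05260), PER4 (AT1G14540), AT3G32980, PRXCA (AT3G49110), PRXCB (AT3G49120), PA2 (AT5G06720) and PER64 (AT5G42180), were not analysed here.

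These enzymes work in the cell wall and the vacuole. With hydrogen peroxide they oxidise phenolic compounds, which can join monolignols into lignin or cross-link wall polymers and proteins and so stiffen a wall. They can also run the other way and produce reactive oxygen that loosens walls, and in the root the balance of these species along the axis is known to accompany the passage of cells out of division. UPBEAT1, a transcription factor of the elongating zone, is known to repress several peroxidase genes there.

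The series compared root RNA on 27 arrays, 15 from marker lines and 12 from root segments, to ask where along and across the root each gene is expressed. Each of 5 lines carried a GFP marker and had 3 arrays. J3411, in the C24 background, is labelled for the lateral root cap with the epidermis. SCR, in the Landsberg background, is labelled for the endodermis and the quiescent centre, although its first replicate has no tissue label. The Columbia lines are WOL, labelled for the stele with a signal that fades beyond elongation, GL2, labelled for atrichoblasts (hairless cells of the epidermis), and J0571, labelled for cortex, endodermis and quiescent centre. Columbia segments gave 4 arrays per stage. Stage I lay about 0.15 mm from the tip at full root diameter, Stage II about 0.30 mm from the tip at the onset of elongation, and Stage III from 0.45 to 2 mm, where hairs were full length. Growth was on MS medium supplemented with 4.5% sucrose, in 16 h of light and 8 h of dark. J3411 and SCR are the only lines of their backgrounds, so line and background cannot be told apart for them. The labels do not say whether the replicates came from separate cultures, so each p-value measures the spread between these arrays, which may be technical.

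Values are MAS5 signal intensities on a linear scale, where the array median lay between 27.3 and 43.7 and a background of 14.8 was set from 12 unspiked bacterial probe sets. Arrays stood apart in 2 ways. Cre spike-in controls were low on 8 arrays, namely SCR replicates 2 and 3 and, at every stage, replicates 1 and 2, and high on the other 19. For the ratio of 3' to 5' GAPDH signal, which tracks RNA quality, the value ranged over 4.34 to 7.85 for 6 stage arrays in the low class and over 14.9 to 31.7 for the 6 in the high class. In the lines it was 4.09 on SCR replicate 2, against 0.717 to 1.95 on the other 14 arrays. On J3411 replicate 3 the summed signal of 4 root hair genes, the measured ones of 11 listed, was 1242. It was 80.6 and 69.0 on the other J3411 arrays. Of the 4, AT3G49960 and AT4G26010 are themselves peroxidases, left out of the family list here, so the sum is not a measure independent of peroxidases. On SCR replicate 1 the same sum was 336, against 133 and 171 on the other SCR arrays, and by gene it was 5.87, 5.22, 1.58 and 1.02 times the higher of the other SCR arrays, raised to background where dimmer, for EXPA7, EXPA18, AT3G49960 and AT4G26010. Root hair transcripts were also high on the WOL arrays, at 725, 1016 and 1596, beyond what the stele label covers, and of the atrichoblast markers none of 3 was measured. GSO1, a receptor kinase of the endodermal barrier and the only measured endodermis marker of 9, had 1149, 819 and 939 in SCR, 449, 1374 and 357 in J0571 and 171, 218 and 397 in WOL, against 37.8, 21.7 and 27.4 in J3411 and 27.5, 29.6 and 16.4 in GL2.

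Most of the measured family was expressed somewhere in the root. Of the 44 genes, 36 were above background on all arrays of at least 1 line or stage, and 8 were above it on all 27 arrays. Of 35 genes above background throughout a line, 11 had their highest mean in GL2, 10 in SCR, 10 in WOL, 3 in J3411 and 1 in J0571. Among 29 genes above background throughout a stage, the highest mean fell in Stage III for 21. It fell in Stage II for 6 and in Stage I for 2. None of these counts was made for all probe sets, so they do not set the family apart from other genes. The array medians were 32.2 to 38.7 in Stage I, 29.1 to 34.8 in Stage II and 37.0 to 41.6 in Stage III. In bulk RNA, fewer cells of a type and less RNA per cell cannot be told apart.

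**Figure D1:**
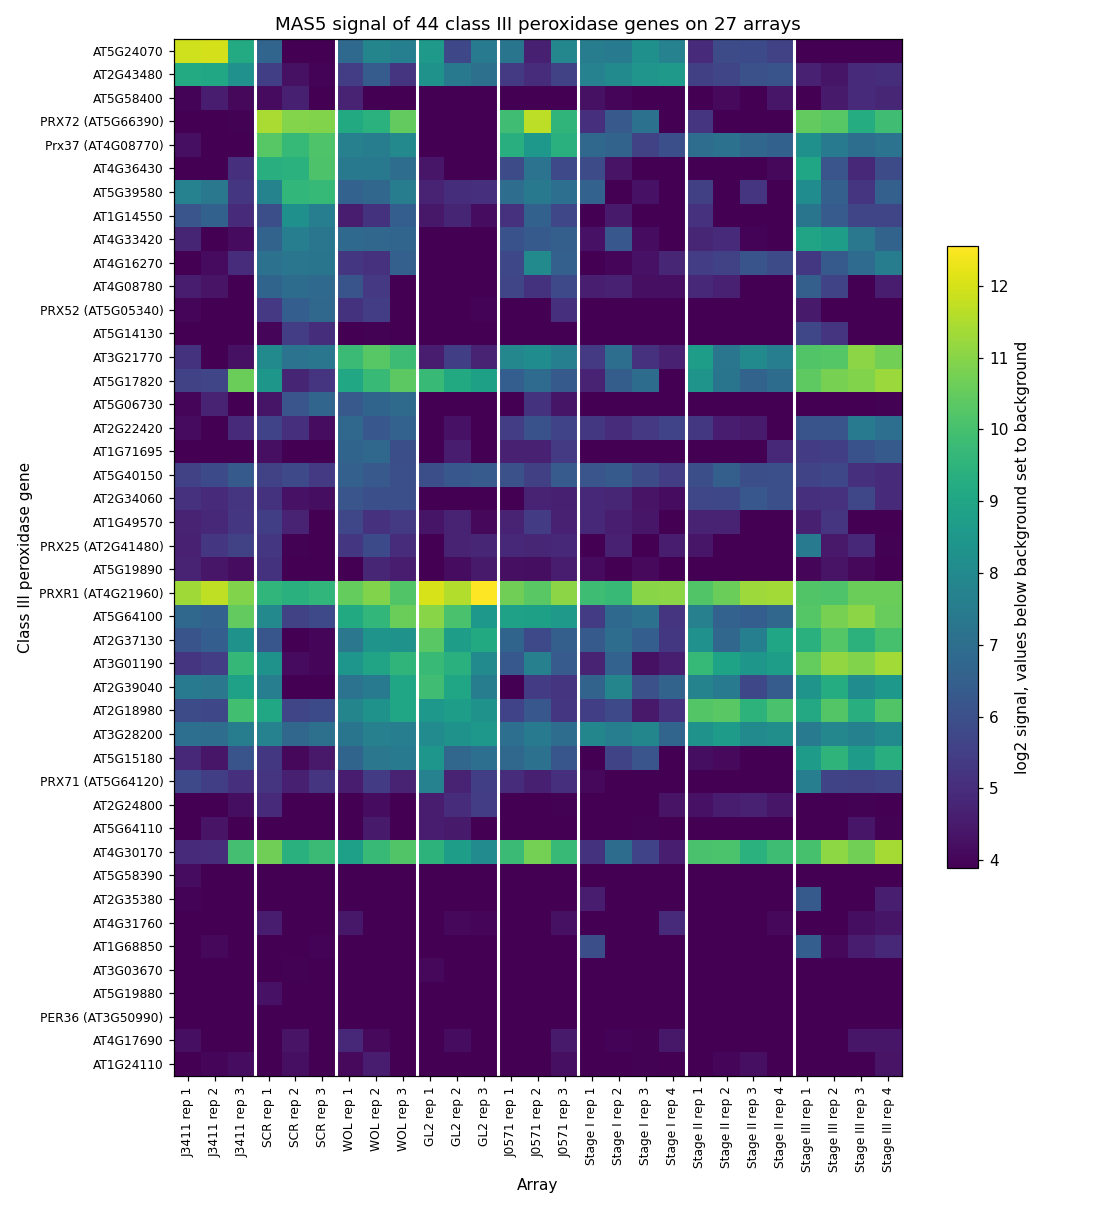
Signal of the 44 measured peroxidase genes (rows) on the 27 arrays (columns, with white bars between lines and stages), in colour on the log2 scale with values below 14.8 set to 14.8. Rows run by the line of the highest mean, and the Stage III columns are brighter than the Stage I columns in many of them.

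Each line was set against the average of the 4 remaining lines, and the stages with one another, by limma on log2 of the signal plus a pseudocount of 2.38, with p-values adjusted by Benjamini-Hochberg over all 22746 probe sets and a threshold of 0.05. Differences below are on that scale with their standard error, and for signals near background they depend on the pseudocount. Where every array of one side lay at or below background, "at least" gives the fold of geometric means with the dim side raised to background. Altogether 31 of the 44 genes passed in at least 1 of the 8 comparisons, against 58.9% of all probe sets. Between lines 25 passed, against 31.2% of all probe sets, between stages 26, against 50.7%, and in both 20, against 23.0%.

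In GL2, the line of the hairless epidermis, 19 of 44 genes (43.2%) passed, against 12.8% of all probe sets. Of these 12 were lower, against 7.69% of all probe sets, and 7 were higher, against 5.11%. The median difference of the 44 genes was -0.35 and that of all probe sets -0.09. The SCR line had 18 of 44 (40.9%) passing, against 17.5% of all probe sets, 11 higher (background 7.61%) and 7 lower (background 9.86%), with a median of -0.01 for the family and -0.07 for all probe sets. For J3411, 11 of 44 (25.0%) passed, against 10.3%, with 2 higher (background 5.02%) and 9 lower (background 5.28%), and medians were -0.32 for the family and -0.01 for all probe sets. WOL had 8 (18.2%) passing, all higher, against 6.66% of all probe sets in either direction, of which 5.27% were higher and 1.38% lower, with medians of 0.48 and 0.09. In J0571 4 (9.09%) passed, against 4.69%, with 3 higher (background 2.44%) and 1 lower (background 2.25%), and medians of -0.02 and 0.03. Without SCR replicate 1 and J3411 replicate 3 together, an alternative chosen after seeing the data, the counts became 17 in WOL (11.5% of all probe sets) and 8 in J0571 (7.87%). Among the Columbia lines alone, 12 genes passed in J0571 (8.47% of all probe sets), 5 higher and 7 lower. Leaving out single arrays gave 7 calls in J3411 without its replicate 1 or 2 (5.25% and 5.08% of all probe sets), 13 in WOL without J3411 replicate 3 (8.31%), and 2 in J0571 without its replicate 2 or 3 (5.30% and 2.15%). When the spike-in class was a block, or on the high class alone, 3 genes passed in SCR, where the lone SCR array of the high class is assumed to vary like the other lines. In those fits 1.78% and 1.71% of all probe sets passed.

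**Figure D2:**
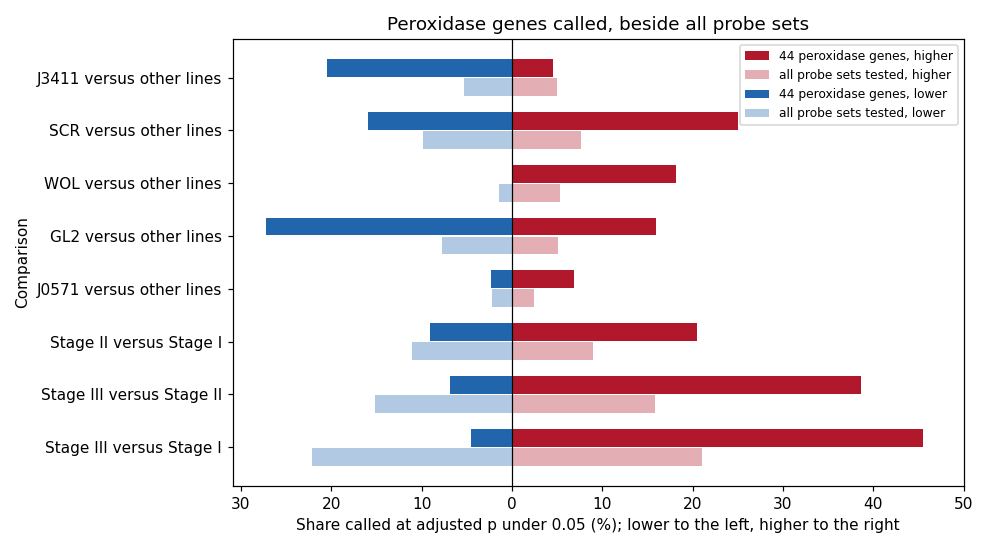
Share of the 44 peroxidase genes (dark bars) and of all 22746 probe sets (pale bars) called at an adjusted p under 0.05 in each of the 8 comparisons, with lower calls to the left and higher calls to the right, in percent. WOL has 8 higher and 0 lower calls among the family, and Stage III against Stage II has 17 higher and 3 lower.

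The clearest pattern across tissues was a set of genes high in the lines that include endodermis or stele and at or near background in the outer lines. PRX72 (AT5G66390), known for a part in lignin formation, had signals of 2779.6, 1946 and 1925 in SCR, 564, 692 and 1432 in WOL and 947, 3332 and 755 in J0571, against 2.02, 1.34 and 15.2 in J3411 and 7.54, 6.59 and 1.52 in GL2. Every array of the first 3 lines exceeded every array of the other 2, and J0571 replicate 2, which also had the highest GSO1 signal of that line (1374), was the brightest. Against the other 4 lines PRX72 was higher in SCR (4.69 ± 0.48, adjusted p = 4.35e-05), in J0571 (3.81 ± 0.48, adjusted p = 2.18e-04) and in WOL (2.94 ± 0.48, adjusted p = 0.00108). It was lower in J3411 (-5.77 ± 0.48, adjusted p = 3.08e-06) and at least 20.4-fold lower in GL2 (adjusted p = 2.29e-06).

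Prx37 (AT4G08770), whose overexpression is known to dwarf plants and alter wall phenolics, had 1259, 834 and 1155 in SCR, 657, 365 and 670.0 in J0571 and 204, 184 and 249 in WOL, against 18.9, 12.8 and 11.1 in J3411 and 11.7, 1.16 and 6.02 in GL2. The 3 SCR arrays lay above all 12 others, and the GL2 arrays all fell below background. Its differences were 4.12 ± 0.32 (adjusted p = 2.84e-06) in SCR, 2.91 ± 0.32 (adjusted p = 5.93e-05) in J0571 and -3.42 ± 0.32 (adjusted p = 7.50e-06) in J3411, and in GL2 it was at least 13.7-fold lower (adjusted p = 1.55e-07). Its call in WOL (1.21 ± 0.32, adjusted p = 0.0293) was lost when any 1 WOL array was left out, with adjusted p up to 0.161. SCR exceeded WOL by 2.33 (adjusted p = 0.00265), while SCR over J0571 gave 0.97 (adjusted p = 0.151).

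AT4G36430 had 632, 688 and 1119 in SCR, against 167, 167 and 127 in WOL, 57.8, 145 and 56.2 in J0571, 5.53, 9.52 and 33.7 in J3411 and 21.0, 3.1 and 2.37 in GL2. The SCR arrays stood above all others, and WOL lay above both outer lines without overlap. AT4G36430 was thus higher in SCR (4.48 ± 0.47, adjusted p = 5.83e-05) and lower in GL2 (-3.70 ± 0.47, adjusted p = 9.23e-05) and J3411 (-2.67 ± 0.47, adjusted p = 0.00158). These 3 genes, PRX72, Prx37 and AT4G36430, were the 3 that kept their SCR call on arrays of the high spike-in class alone, at 5.04 (adjusted p = 0.0105), 4.36 (adjusted p = 0.00271) and 4.16 (adjusted p = 0.0245).

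**Figure D3:**
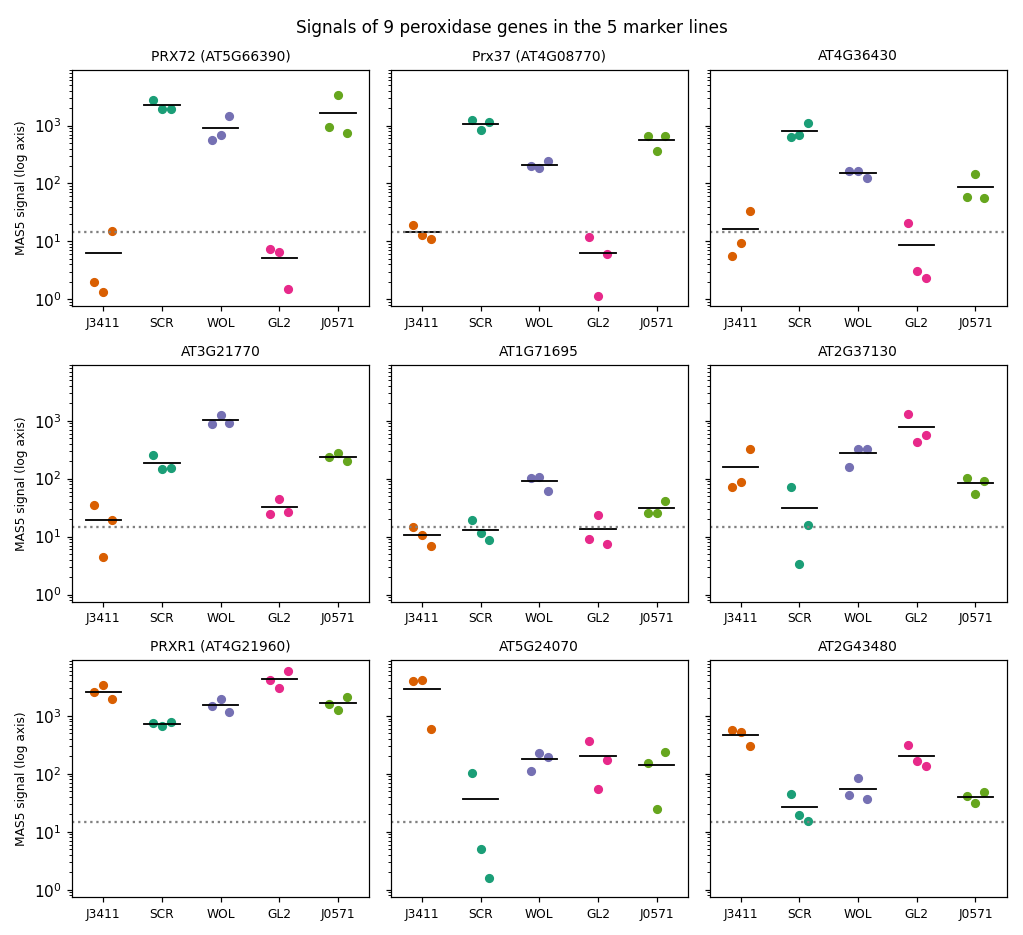
MAS5 signal (log axis) of 9 peroxidase genes on the 3 arrays of each marker line, with 1 point per array, a bar at the mean and a dotted line at the background of 14.8. PRX72, Prx37 and AT4G36430 are high in SCR, WOL and J0571, AT3G21770 and AT1G71695 are highest in WOL, and AT5G24070 and AT2G43480 are highest in J3411.

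Both measured genes known as targets of UPBEAT1 were expressed in several lines, in different ones. AT4G16270 had 138, 155 and 153 in SCR, 54.4, 262 and 92.7 in J0571 and 38.5, 34.7 and 94.2 in WOL, against 9.10, 17.4 and 32.0 in J3411 and 7.57, 12.9 and 13.4 in GL2. All GL2 arrays were below background, and the brightest array was again J0571 replicate 2. Its level was higher in SCR (2.09 ± 0.41, adjusted p = 0.00335) and at least 4.14-fold lower in GL2 (adjusted p = 0.00177). Its call in J0571 (1.56 ± 0.41, adjusted p = 0.0413) was lost in 10 of 15 fits that left out 1 array, with adjusted p up to 0.217 without J0571 replicate 2. The call of AT4G16270 in J3411 (-1.57 ± 0.41, adjusted p = 0.0225) was lost without J3411 replicate 1 (adjusted p = 0.210) or 2. AT5G17820 had 536, 841 and 1324 in WOL and 859, 562 and 447 in GL2, against 88.7, 121 and 81.3 in J0571, 355, 27.8 and 37.6 in SCR and 47.0, 51.4 and 1560.2 in J3411. WOL and GL2 were high on all arrays, and J3411 and SCR were high on 1 array each, J3411 replicate 3 and SCR replicate 1. No line comparison of AT5G17820 passed with all arrays.

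AT4G33420, known from lignifying vessels, had 99.0, 194 and 156 in SCR, 116, 107 and 104 in WOL and 67.6, 80.8 and 90.1 in J0571, against 27.5, 14.9 and 17.5 in J3411 and 13.9, 13.7 and 4.18 in GL2. GL2 lay below background and below every other array. The gene was higher in SCR (1.90 ± 0.29, adjusted p = 6.18e-04) and WOL (1.41 ± 0.29, adjusted p = 0.00626), lower in J3411 (-1.54 ± 0.29, adjusted p = 0.00226) and at least 4.73-fold lower in GL2 (adjusted p = 2.34e-05).

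Other genes peaked in the stele line. AT3G21770 had 890.1, 1264 and 901 in WOL, against 239, 276 and 198 in J0571, 260.2, 146 and 155 in SCR, 24.2, 44.6 and 26.9 in GL2 and 35.4, 4.41 and 19.3 in J3411. All WOL arrays exceeded all 12 others, and the outer lines were the lowest. It was higher in WOL (3.82 ± 0.36, adjusted p = 6.43e-06) and lower in J3411 (-3.46 ± 0.36, adjusted p = 2.24e-05) and GL2 (-2.33 ± 0.36, adjusted p = 5.34e-04), and WOL exceeded J0571, the next line, by 2.08 (adjusted p = 0.0181).

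AT1G71695 had 103, 109 and 62.0 in WOL, against a lowest signal of 6.91, a median of 13.1 and a highest of 41.2 on the other 12 line arrays (2.40 ± 0.34, adjusted p = 3.27e-04). WOL lay apart from the rest without overlap, and J3411 was below background on all arrays. It was called at least 1.69-fold lower in J3411 (adjusted p = 0.0410). The call was lost in 7 of 15 fits that left out 1 array, among them each fit without a J3411 array, with adjusted p up to 0.154.

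AT2G22420, known from the formation of lignified tissue, had 110.4, 74.7 and 97.1 in WOL, against 10.7, 25.3 and 67.7 as lowest, median and highest of the others. The groups did not overlap, and the difference was 1.72 ± 0.31 (adjusted p = 0.00222). In GL2 it was lower, at 14.5, 19.6 and 10.7 (-1.39 ± 0.31, adjusted p = 0.00678), a call lost without GL2 replicate 3 (adjusted p = 0.0598). AT2G34060 had 72.1, 63.6 and 64.0 in WOL, against 6.14, 22.6 and 37.4, again with no overlap (1.60 ± 0.30, adjusted p = 0.00333), and it was at least 2.16-fold lower in GL2 (adjusted p = 0.00456).

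AT5G06730 was high in both WOL and part of SCR. Its signals were 78.6, 103 and 118 in WOL and 20.9, 72.2 and 106 in SCR, against 7.28, 35.9 and 20.9 in J0571, 16.3, 26.3 and 1.21 in J3411 and 0.984, 1.34 and 0.723 in GL2. WOL lay above the 9 arrays of J0571, J3411 and GL2, and overlapped with SCR. The gene was higher in WOL (2.76 ± 0.56, adjusted p = 0.00606) and at least 2.00-fold lower in GL2 (adjusted p = 9.23e-04), while its SCR call (1.74 ± 0.56, adjusted p = 0.0443) was lost in 10 of 15 fits that left out 1 array. Both measured xylem markers of 8 were higher in WOL, at a summed signal of 219, 317 and 197, against 50.3, 20.3 and 10.7 in SCR. Of these markers, AT5G51890 is itself a peroxidase, left out of the family list. All 4 measured root hair markers were higher in WOL as well, and their part in these calls was not tested.

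Several genes high in SCR differed between its arrays. AT5G39580 had 217, 792 and 829.7 in SCR, against 213, 165 and 38.2 in J3411, 98.1, 107 and 187 in WOL, 127, 169 and 133 in J0571 and 26.1, 32.4 and 33.5 in GL2. SCR stood above all others, with replicate 1 close to the highest J3411 array, and GL2 below all others. It was higher in SCR (2.53 ± 0.44, adjusted p = 0.00142) and lower in GL2 (-2.47 ± 0.44, adjusted p = 0.00141). On the high spike-in class alone, which leaves SCR replicate 1, the SCR difference was 1.27 (adjusted p = 0.349).

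PRX52 (AT5G05340), which takes part in lignin formation in stems, had 39.8, 88.0 and 114 in SCR, against 5.64, 14.4 and 43.5 as lowest, median and highest on the others. The groups overlapped through SCR replicate 1 and WOL, and the difference was 2.02 ± 0.40 (adjusted p = 0.00330). AT1G14550 had 62.0, 298 and 195 in SCR, against 18.2, 35.3 and 96.5 (1.80 ± 0.46, adjusted p = 0.0137), a call lost without SCR replicate 2 (adjusted p = 0.135) or replicate 3. AT5G14130 had 16.1, 43.6 and 32.4 in SCR, against 0.683, 3.83 and 15.1 (2.13 ± 0.46, adjusted p = 0.00559), a call that needed SCR replicate 2 (adjusted p = 0.0541 without it). In all 4 genes SCR replicates 2 and 3, of the low spike-in class, were brighter than replicate 1. Replicate 2 is also the array with the GAPDH ratio of 4.09, and the part of class and RNA quality in these differences was not tested.

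In the hairless epidermis line a different set was higher. AT2G37130 had 1299, 431 and 563 in GL2, against 71.1, 89.3 and 323 in J3411, 160.2, 330.2 and 327 in WOL, 103, 55.2 and 92.0 in J0571 and 73.1, 3.40 and 16.0 in SCR. GL2 exceeded all 12 other arrays, and SCR replicates 2 and 3 were the lowest. The difference was 2.98 ± 0.59 (adjusted p = 0.00308) in GL2 and -3.39 ± 0.59 (adjusted p = 0.00144) in SCR.

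PRXR1 (AT4G21960) was well above background on all 27 arrays. It had 4135, 2993 and 6002 in GL2, against 2553, 3401 and 1937 in J3411, 1457, 1917 and 1184 in WOL, 1617, 1281 and 2119 in J0571 and 763, 664 and 771 in SCR. SCR was below every other array, and GL2 overlapped with J3411 alone. It was higher in GL2 (1.52 ± 0.24, adjusted p = 6.66e-04) and lower in SCR (-1.63 ± 0.24, adjusted p = 5.98e-04).

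AT3G28200 varied less, with 269.9, 323 and 364 in GL2, against 107, 145 and 214 as lowest, median and highest on the others. GL2 was above all of them, by 1.03 ± 0.20 (adjusted p = 0.00327). AT2G39040, AT5G15180 and AT2G24800 were also called higher in GL2, with overlap between groups, and leaving out 1 array lost the call in 8 of 15 fits for AT2G39040, in 13 of 15 for AT2G24800 and in 1 of 15 for AT5G15180. AT2G39040 had 962, 520.0 and 183 in GL2, against 7.93, 152 and 511 (2.40 ± 0.71, adjusted p = 0.0355, and adjusted p = 0.192 without GL2 replicate 1). AT5G15180 had 344, 106 and 132 in GL2, against 16.9, 72.8 and 171 (1.45 ± 0.37, adjusted p = 0.0176, and adjusted p = 0.154 without GL2 replicate 1).

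AT2G39040 was also lower in SCR, at 191, 13.6 and 7.93 (-2.40 ± 0.71, adjusted p = 0.0286), a call lost without SCR replicate 2 or 3 and turned to 0.21 (adjusted p = 0.920) once that class was a block. AT5G15180 was lower in SCR as well, at 38.9, 16.9 and 22.2 (-1.90 ± 0.37, adjusted p = 0.00314).

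The root cap and epidermis line J3411 led in few genes. AT5G24070 had 3928, 4083 and 583 in J3411, against 374, 53.8 and 173 in GL2, 114, 228 and 196 in WOL, 154, 24.8 and 241 in J0571 and 104, 5.09 and 1.62 in SCR. J3411 exceeded all 12 others, and its replicate 3, rich in hair transcripts, was the lowest of the line. The difference was 4.73 ± 0.88 (adjusted p = 0.00216) in J3411 and -4.23 ± 0.88 (adjusted p = 0.00439) in SCR, where the call was lost without replicate 3 (adjusted p = 0.0556).

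AT2G43480 had 575, 528 and 307 in J3411 and 313, 169 and 137 in GL2, against 43.7, 84.4 and 37.3 in WOL, 41.0, 31.8 and 48.3 in J0571 and 44.5, 19.3 and 15.6 in SCR. The 2 epidermal lines were above the 3 inner ones on every array. It was higher in J3411 (2.96 ± 0.32, adjusted p = 3.35e-05) and in GL2 (1.44 ± 0.32, adjusted p = 0.00786) and lower in SCR (-2.18 ± 0.32, adjusted p = 5.71e-04), while the GL2 call was lost without GL2 replicate 1 (adjusted p = 0.0758) and the lower call in J0571 (-1.33 ± 0.32, adjusted p = 0.0265) without any 1 J0571 array. The root cap marker AT4G04460, the only measured one of 6, was 651, 518 and 318 in J3411, 217, 429 and 398 in WOL and 91.4, 39.2 and 113 in GL2, against 39.6, 30.2 and 99.2 in J0571 and 45.6, 19.3 and 10.6 in SCR.

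A further set of peroxidases was high on J3411 replicate 3 and SCR replicate 1, the arrays of their lines with the highest root hair sums. On both, 4 of 44 genes (9.09%) were at least 4-fold above both other arrays of the same line, against 30 of 22746 probe sets (0.132%). They were AT2G18980, AT3G01190, AT5G17820 and AT5G64100. The 2 arrays were not alike in all genes. As a ratio to the higher of the other arrays, raised to background where dimmer, AT5G24070 stood at 7.07 on SCR replicate 1. On J3411 replicate 3 it stood at 0.143. For SCR replicate 1 this ratio was 2.36 for root cap marker AT4G04460, 2.65 for xylem AT5G51890 and 2.07 for cortex AT1G62510. The other measured cortex, endodermis, stele and xylem markers lay at 0.752 to 1.22 there. AT3G01190 had 36.1, 44.4 and 813 in J3411 and 323, 17.8 and 16.2 in SCR, in replicate order, against 868, 674 and 263 in GL2, 345, 499 and 749 in WOL and 78.1, 202 and 82.7 in J0571. AT2G18980 had 57.7, 53.8 and 982 in J3411 and 544, 51.8 and 57.0 in SCR, against 364, 429 and 317 in GL2, 228, 324 and 517 in WOL and 48.9, 74.7 and 37.8 in J0571. In both genes the 2 arrays lay above the lowest GL2 array, and the rest of J3411 and SCR was low. GL2 carried both genes while its 4 root hair markers summed to 266, 238 and 86.9, and the part of hair cells in these values was not tested. Of these sums AT4G26010, itself a peroxidase, gave 194, 162 and 45.8.

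AT5G64100 had 2068, 1082 and 367 in GL2, 572, 787 and 1548 in WOL and 455, 448 and 375 in J0571, against 111, 97.6 and 1431 in J3411 and 248, 47.9 and 55.5 in SCR. Its lower call in SCR (-2.61 ± 0.69, adjusted p = 0.0167) was lost without SCR replicate 2 (adjusted p = 0.124) or 3. AT4G30170 behaved likewise in J3411 but not in SCR, with 31.2, 31.4 and 989 in J3411, against 1622, 665 and 892 in SCR, 443, 862 and 1178 in WOL, 721, 427 and 267 in GL2 and 885, 1715 and 868 in J0571. Its lower call in J3411 (-2.90 ± 0.73, adjusted p = 0.0177) was lost without J3411 replicate 2 (adjusted p = 0.195) or 1.

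**Figure D4:**
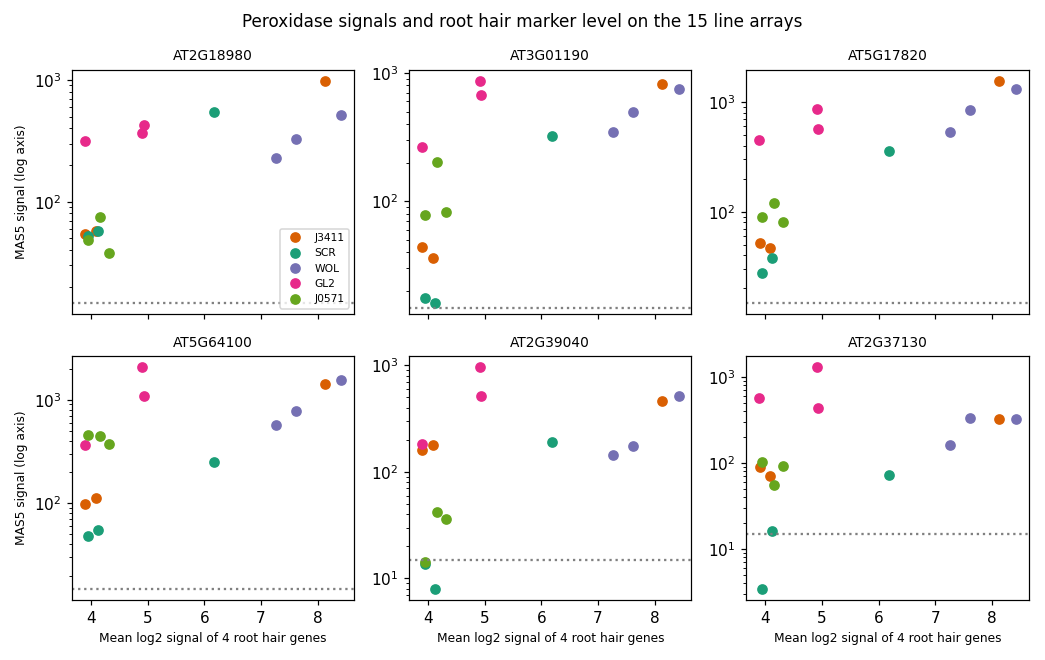
MAS5 signal (log axis) of 6 peroxidase genes on the 15 line arrays against the mean log2 signal of 4 root hair genes, 1 point per array and coloured by line, with a dotted line at the background of 14.8. Among the 4 root hair genes, AT3G49960 and AT4G26010 are peroxidases too. The J3411 and SCR arrays farthest to the right are J3411 replicate 3 and SCR replicate 1, and GL2 arrays are high in the peroxidases at a low hair marker level.

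Along the root axis, more genes were called higher than lower in Stage III. Between Stage II and Stage I, 13 of 44 genes (29.5%) passed, against 20.1% of all probe sets. Of these 9 were higher (background 8.99%) and 4 were lower (background 11.1%), and the median was -0.07 for the family and -0.09 for all probe sets. Between Stage III and Stage II, 20 of 44 (45.5%) passed, against 30.9% of all probe sets, with 17 higher (background 15.8%) and 3 lower (background 15.2%), and medians of 0.98 and 0.08. Stage III against Stage I gave 22 of 44 (50.0%), against 43.1%, with 20 higher (background 21.0%) and 2 lower (background 22.1%), and medians of 0.95 and 0.07. On the low spike-in class alone, 5 genes passed for Stage II over Stage I, against 11.8% of all probe sets. Same-numbered arrays of Stages I and II and of Stages II and III deviated together. Such arrays also share their spike-in class, and the part of class in this was not tested. With the replicate number as a block, Prx37, AT1G68850, AT4G08780, AT4G30170 and AT5G14130 also passed as higher in Stage III than in Stage II (adjusted p from 0.0157 to 0.0486). In that fit Prx37 passed as higher in Stage II than in Stage I (adjusted p = 0.0347), and AT5G58390 no longer passed there (adjusted p = 0.0541). The comparisons share their stage arrays.

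The earliest increase came at Stage II. AT2G18980 had 45.2, 55.2, 22.5 and 34.7 in Stage I, 1197, 1285, 719 and 1064 in Stage II and 555, 1209, 653 and 1169 in Stage III. Stage I lay far below both later stages, which overlapped. Its difference was 4.71 ± 0.30 (adjusted p = 9.18e-07) for Stage II over Stage I and 4.41 ± 0.30 (adjusted p = 2.05e-07) for Stage III over Stage I.

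AT4G30170 had 35.6, 124, 49.3 and 24.6 in Stage I, 1069.8, 1094, 678 and 937 in Stage II and 1057, 2152, 1671 and 2669.7 in Stage III. Here too Stage I stood apart from both others, and the difference was 4.20 ± 0.40 (adjusted p = 1.12e-05) for Stage II over Stage I. AT3G01190 had 26.5, 98.2, 19.4 and 24.4 in Stage I, 828, 477, 358 and 432 in Stage II and 1458, 2291, 1921 and 2617 in Stage III. No 2 of the stages overlapped, with 3.79 ± 0.40 (adjusted p = 2.81e-05) for Stage II over Stage I and 2.02 ± 0.40 (adjusted p = 0.00156) for Stage III over Stage II, and the second of these was 1.54 (adjusted p = 0.125) on the low spike-in class alone.

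AT3G21770, the gene that peaked in WOL, had 41.0, 131, 34.9 and 25.6 in Stage I, 420.1, 156, 263 and 195 in Stage II and 1185, 1242, 2124 and 1677 in Stage III. It was higher at each step, by 2.30 ± 0.42 (adjusted p = 0.00145) and 2.64 ± 0.42 (adjusted p = 2.89e-04), and the first of these was 1.77 (adjusted p = 0.118) on the low class alone. AT2G37130, highest in GL2, had 80.8, 127, 89.1 and 39.1 in Stage I, 310.5, 107, 199.8 and 518 in Stage II and 677, 1242, 705 and 1054 in Stage III. Stage III was above all earlier arrays (1.86 ± 0.42, adjusted p = 0.00376 over Stage II, and 1.41, adjusted p = 0.0650, on the high class alone). Stages I and II overlapped, and the call of Stage II over Stage I (1.62 ± 0.42, adjusted p = 0.0143) was 0.84 (adjusted p = 0.379) on the low class alone. Between stages AT2G34060 was called for Stage II over Stage I alone (1.31 ± 0.25, adjusted p = 0.00201), with 28.6, 27.9, 20.2 and 17.8 in Stage I, 53.4, 54.4, 74.7 and 63.6 in Stage II and 34.1, 34.8, 53.0 and 30.6 in Stage III.

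The UPBEAT1 targets were both higher in Stage III than in Stage I. AT5G17820 had 26.3, 86.3, 124 and 8.68 in Stage I, 332, 151, 101 and 124 in Stage II and 1365, 1755, 1920.0 and 2422 in Stage III. Stage III stood far above the rest, by 3.51 ± 0.60 (adjusted p = 4.93e-04) over Stage II, while Stages I and II overlapped and their call (1.89 ± 0.60, adjusted p = 0.0370) was lost in 5 of 12 fits that left out 1 array and within either spike-in class. AT4G16270 had 5.40, 16.5, 19.8 and 28.2 in Stage I, 43.8, 47.2, 70.4 and 60.1 in Stage II and 39.4, 80.7, 121 and 187 in Stage III, and was higher in Stage III than in Stage I (2.42 ± 0.46, adjusted p = 5.32e-04) and in Stage II than in Stage I (1.68 ± 0.46, adjusted p = 0.0174), which was 1.98 (adjusted p = 0.0565) on the low class alone. UPBEAT1 itself (AT2G47270) had 26.6, 13.4, 2.34 and 15.5 in Stage I, 293, 131, 156 and 286 in Stage II and 169, 310.5, 399 and 618 in Stage III, and was higher in Stage II than in Stage I (3.88 ± 0.50, adjusted p = 1.20e-04) and in Stage III than in Stage I (4.60 ± 0.50, adjusted p = 4.50e-06).

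Other genes were highest in Stage III. PRX72 had 34.1, 78.7, 141 and 14.7 in Stage I, 37.3, 1.90, 4.33 and 1.24 in Stage II and 1402, 1262, 612 and 955 in Stage III. All Stage III arrays were far above the earlier ones, and 3 of 4 Stage II arrays were below background. It was higher in Stage III than in Stage II (6.98 ± 0.71, adjusted p = 1.35e-05), while its lower call in Stage II than in Stage I (-2.69 ± 0.71, adjusted p = 0.0149) was lost without Stage I replicate 3 (adjusted p = 0.0547) or Stage II replicate 4, and was -2.06 (adjusted p = 0.230) on the low class alone.

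AT5G15180 had 4.84, 50.3, 72.8 and 14.7 in Stage I, 18.5, 17.0, 5.87 and 6.03 in Stage II and 397, 729, 402 and 643 in Stage III. Stage III was above all others, by 5.34 ± 0.60 (adjusted p = 2.38e-05) over Stage II. AT5G64100 had 42.8, 116, 141 and 37.5 in Stage I, 203, 98.0, 88.0 and 107 in Stage II and 1223, 1765, 2089 and 1501 in Stage III, with 3.76 ± 0.39 (adjusted p = 1.43e-05) for Stage III over Stage II. In both genes the earlier stages overlapped. AT2G39040 followed with 101, 229, 65.7 and 99.2 in Stage I, 218, 171, 54.8 and 84.5 in Stage II and 331, 611, 274 and 363 in Stage III (1.69 ± 0.43, adjusted p = 0.00742 for Stage III over Stage II), again above all earlier arrays.

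Of the lignin-linked genes, AT4G33420 had 19.8, 75.9, 17.9 and 1.96 in Stage I, 28.5, 30.0, 15.8 and 2.71 in Stage II and 493, 426, 162 and 99.4 in Stage III, and was higher in Stage III than in Stage II (3.81 ± 0.80, adjusted p = 0.00215). PRX71 (AT5G64120), which is linked to lignin and wall stiffness, had 16.7, 14.4, 6.19 and 3.06 in Stage I, 11.9, 2.80, 10.1 and 10.8 in Stage II and 194, 51.2, 47.4 and 51.6 in Stage III. All Stage II arrays were below background and Stage III was at least 4.75-fold higher (adjusted p = 0.00108). AT2G22420 had 39.6, 31.4, 39.9 and 49.8 in Stage I, 38.9, 23.6, 22.8 and 13.7 in Stage II and 70.7, 71.0, 178 and 132 in Stage III, with no overlap of Stage III with Stage II (2.05 ± 0.34, adjusted p = 3.95e-04).

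AT4G36430 was higher in Stage III, with 58.8, 20.5, 6.35 and 5.62 in Stage I, 8.27, 5.74, 2.05 and 17.0 in Stage II and 501, 72.0, 29.1 and 58.8 in Stage III (3.31 ± 0.80, adjusted p = 0.00572 for Stage III over Stage II). Replicate 1 was by far the brightest Stage III array, and the difference without it was 2.50, and 2.25 (adjusted p = 0.0649) on the high spike-in class alone. AT1G71695 had 11.5, 11.2, 8.13 and 1.92 in Stage I, 9.55, 14.9, 7.73 and 28.7 in Stage II and 43.0, 45.5, 66.4 and 80.3 in Stage III, and was at least 3.85-fold higher in Stage III than in Stage I (adjusted p = 2.11e-04). Prx37 changed less, with 112, 101, 48.6 and 63.7 in Stage I, 125, 143, 108 and 95.6 in Stage II and 304, 177, 129 and 145 in Stage III (1.19 ± 0.29, adjusted p = 0.00398 for Stage III over Stage I). AT1G14550, high in SCR, had 9.07, 22.6, 11.8 and 12.2 in Stage I, 34.5, 12.2, 1.83 and 11.2 in Stage II and 154, 82.5, 51.4 and 51.7 in Stage III, and all Stage III arrays were above the rest (2.57 ± 0.55, adjusted p = 0.00259 for Stage III over Stage II). AT5G39580 had 98.6, 12.2, 19.7 and 14.7 in Stage I, 45.9, 11.3, 37.7 and 12.6 in Stage II and 273, 93.4, 36.1 and 93.6 in Stage III, which overlapped. Its call for Stage III over Stage II (1.98 ± 0.67, adjusted p = 0.0351) was lost in 5 of 12 fits that left out 1 array. The adjusted p reached 0.107, without Stage III replicate 1. PRX52 and PRX25 (AT2G41480), also linked to lignin, were not called in any stage comparison, with ranges over the 12 stage arrays of 0.631 to 22.6 and 9.69 to 175.

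**Figure D5:**
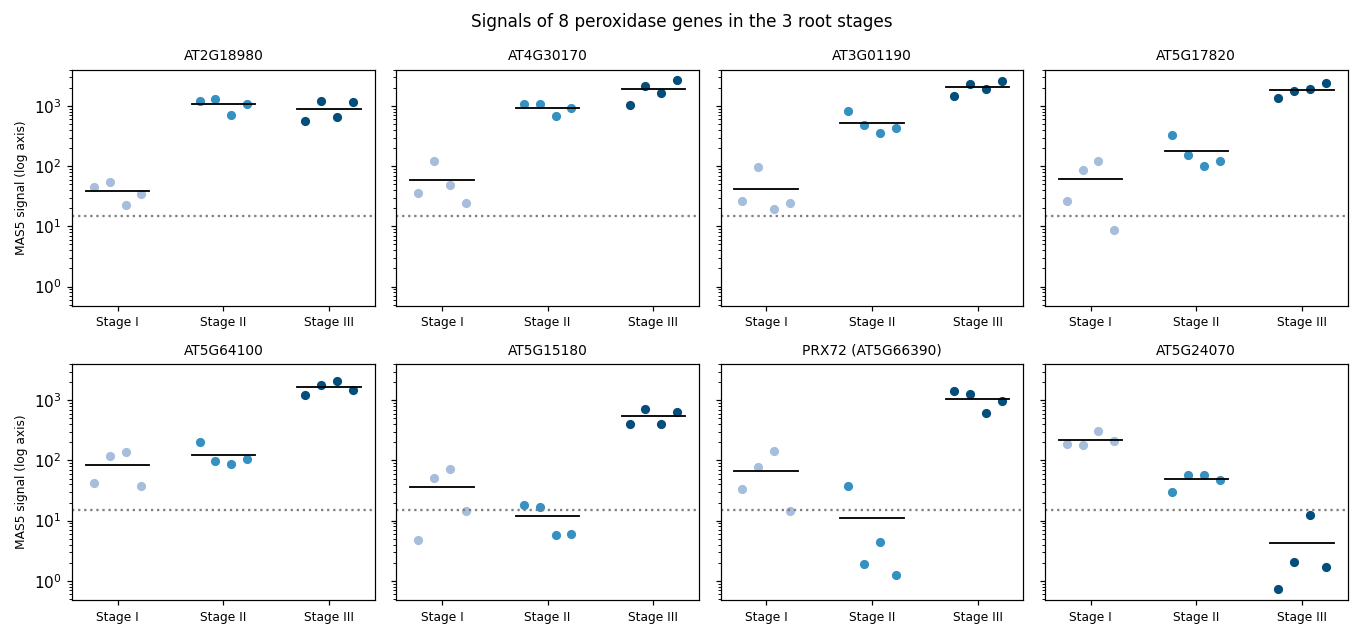
MAS5 signal (log axis) of 8 peroxidase genes on the 4 arrays of Stages I, II and III, with 1 point per array, a bar at the mean and a dotted line at the background of 14.8. The first 3 genes are higher from Stage II on, the next 4 are highest in Stage III, and AT5G24070 is lower at each step.

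Both genes called higher in J3411 were lower away from the tip. AT5G24070 had 187, 178, 304 and 212 in Stage I, 30.4, 58.2, 57.5 and 47.9 in Stage II and 0.728, 2.06, 12.3 and 1.71 in Stage III. The 3 stages did not overlap, and all Stage III arrays were below background. It was lower in Stage II than in Stage I (-2.14 ± 0.41, adjusted p = 0.00228), and in Stage III it was at least 3.18-fold lower than in Stage II (adjusted p = 6.85e-05) and at least 14.6-fold lower than in Stage I (adjusted p = 4.02e-07).

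AT2G43480 had 214, 261, 337 and 384 in Stage I, 46.1, 52.1, 66.3 and 71.1 in Stage II and 25.7, 20.6, 30.9 and 32.4 in Stage III. The stages again did not overlap, with -2.28 ± 0.23 (adjusted p = 1.65e-05) for Stage II over Stage I and -1.04 ± 0.23 (adjusted p = 0.00277) for Stage III over Stage II. These 2 genes were the only ones of the 44 called lower in Stage III than in Stage I. AT5G40150 was lower in Stage III than in Stage II, at 50.4, 54.7, 33.1 and 29.9, against 63.1, 90.1, 63.0 and 64.1 (-0.73 ± 0.25, adjusted p = 0.0400), a call lost in 6 of 12 fits that left out 1 array. AT3G28200 was higher in Stage II than in Stage I, at 326, 412, 265 and 286, against 232, 193, 234 and 106 (0.79 ± 0.24, adjusted p = 0.0312), a call lost in 5 of 12 such fits and within either spike-in class.

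The markers of some cell types, though not of all, moved along the same axis. The 4 root hair markers summed to 70.0 to 306 in Stage I, 63.1 to 359 in Stage II and 3559 to 5152 in Stage III, the 2 xylem markers to 34.6 to 107, 23.1 to 78.9 and 595 to 832, and GSO1 was 27.5 to 36.9, 32.5 to 80.3 and 492 to 573. All 4 root hair markers and GSO1 were higher in Stage III than in Stage I, and 1 of 2 xylem markers was. Of 4 cortex markers, 1 was higher and 1 lower in Stage III than in Stage II. The root cap marker AT4G04460 was 87.5 to 196 in Stage I and 84.9 to 172 in Stage III. The stele marker PHV (AT1G30490) was 36.4 to 56.8 and 40.3 to 55.6, and neither was called between stages. The part of these cell types in the peroxidase differences was not tested.

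In the array annotation used here, few genes that supply or pair with peroxidases had a probe set assigned to them alone. Of 18 genes of monolignol synthesis 2 were measured, HCT (AT5G48930) and CCR2 (AT1G80820), and both were higher in Stage III than in Stage II. The difference was 2.93 ± 0.22 (adjusted p = 2.83e-06) for HCT, and CCR2, below background on all Stage II arrays, was at least 2.45-fold higher (adjusted p = 1.56e-05). HCT had 992, 497 and 551 in SCR, 615, 807 and 892 in WOL and 541, 1162 and 504 in J0571, against 198, 177 and 129 in J3411 and 142, 85.4 and 110.3 in GL2. Its inner lines lay above both outer lines on every array, as PRX72 did. HCT was higher in SCR (1.04 ± 0.27, adjusted p = 0.0137), WOL (1.34 ± 0.27, adjusted p = 0.00506) and J0571 (1.14 ± 0.27, adjusted p = 0.0211), and lower in GL2 (-2.12 ± 0.27, adjusted p = 7.80e-05) and J3411 (-1.40 ± 0.27, adjusted p = 0.00257). CCR2 was higher in SCR (3.12 ± 0.61, adjusted p = 0.00301) and at least 6.01-fold lower in GL2 (adjusted p = 1.61e-04).

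NADPH oxidases make the superoxide from which hydrogen peroxide forms, and 3 of 10 were measured. All 3 were higher in Stage III than in Stage II, AT1G19230 by 2.58 ± 0.27 (adjusted p = 1.42e-05), AT4G25090 at least 6.71-fold (adjusted p = 1.09e-05) and AT4G11230 at least 2.92-fold (adjusted p = 8.35e-04), and none was called between Stage II and Stage I or between lines. AT4G25090 had 1.77, 0.825, 4.58 and 3.75 in Stage I, 8.11, 2.42, 0.903 and 6.08 in Stage II and 114, 116, 89.6 and 81.6 in Stage III, with all Stage III arrays above the earlier ones. Of 17 laccases, which also oxidise monolignols, LAC16 alone was measured, and it lay below background on all 27 arrays, so no fold is given for its calls between stages.

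Family members lie side by side in the genome in 13 pairs, 12 of them with no coding gene between them, and in 5 pairs both genes were measured. Prx37 and its neighbour AT4G08780 were both higher in SCR. AT4G08780 had 103, 124 and 116 in SCR, against 5.41, 21.9 and 70.9 as lowest, median and highest on the others (2.20 ± 0.42, adjusted p = 0.00268), and was at least 2.80-fold lower in GL2 (adjusted p = 0.00706). The GL2 call of AT4G08780 was lost without GL2 replicate 2 (adjusted p = 0.0618).

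The run AT5G64100, AT5G64110 and PRX71 differed in its calls. AT5G64110 was not called in any comparison and ranged from 2.77 to 24.0 over the 27 arrays, while AT5G64100 and PRX71 were both higher in Stage III. PRX71 was not called in any line, where GL2 replicate 1 had 211 and the other 14 arrays at most 56.1. AT5G58390 was at or below background on 26 of 27 arrays, and its 2 stage calls are not described further, while its neighbour AT5G58400 was not called. Neither AT5G19880 nor AT5G19890 was called.

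The remaining genes gave little signal or no call. In all, 13 of 44 were called in no comparison, and 8 were above background on all arrays of no line or stage. PER36 (AT3G50990) was below background on all 27 arrays, from 1.05 to 12.4. AT1G49570 and PRX25 were above background on most line arrays, from 14.7 to 53.1 and 9.79 to 56.9, with no line called. The other genes with no call in the fits without a block were AT1G24110 (1.89 to 23.5), AT1G68850 (0.796 to 89.3), AT2G35380 (0.682 to 81.0), AT3G03670 (1.25 to 16.8), AT4G17690 (5.20 to 29.7) and AT4G31760 (1.82 to 30.2), with their range over all arrays. AT5G06730, bright in WOL, was at or near background in the stages, at 0.717 to 15.2. It was called higher in Stage III than in Stage II and in Stage I. At these signals the calls were lost in 5 and 8 of 12 fits that left out 1 array. With the replicate number as a block AT1G68850 was called between Stage III and Stage II, as given above. For the other uncalled genes no difference was detectable beyond the spread between arrays.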

How the data were processed

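Total RNA from the marker lines and the root segments was labelled with biotin and measured on 27 arrays. The authors deposited linear MAS5 signal intensity values per probe set, per the submitters' processing notes (its version is not given in the sources used here), and on every array the trimmed mean lay near 100.

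Of 22810 probe sets, 64 controls were left out and 22746 tested. The array annotation assigned 13513 of these to 1 gene, 503 to several and 8730 to none, and for a gene with several probe sets the one with the highest mean over all arrays was used. Names came from the TAIR10.1 RefSeq annotation. Log2 of the signal plus 2.38, the 10th percentile of all values, was fitted with limma 3.58.1 (lmFit and eBayes with a trend) in R 4.3.3, separately for 15 line and 12 stage arrays, with Benjamini-Hochberg adjustment. Background was the 95th percentile of the 12 unspiked bacterial control probe sets. The number of arrays limits the precision.

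The genes and lists were chosen with earlier results of these data known. Values in every array are given for at most 3 rising and 3 falling genes per comparison, by size of difference among those without overlap, the 5 brightest, called genes of the role groups, and neighbouring genes, with some further called genes. Same-numbered stage arrays deviated together from their group means, with correlations of 0.15 to 0.29 between Stages I and II, 0.12 to 0.21 between Stages II and III and 0.098 to 0.25 between Stages I and III. The first and second of these comparisons, over 0.1 in all 4 pairs, were taken as paired by the data, since the labels name no shared source, and results of the fit with the replicate number as a block are given where they change a call. The spike-in class follows the replicate number in every stage, and only same-numbered arrays were correlated. These correlations therefore cannot tell a shared source from a shared class. The alternatives changed the pseudocount, normalization, filter, blocks and arrays.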

Additional observations from a re-analysis of the deposited data

Results flagged for a closer look

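In 8 of 76 stage groups of 4 arrays (10.5%), 1 array lay apart from the other 3. The gap exceeded the 95% critical value of Dixon's test, which flags about 1 in 20 among independent groups of normal values. Here the signals were on the linear scale, and the genes share the same arrays and were mostly chosen for their calls. That rate need not hold for them, so no excess is read from the 8 flags. All 8 were the highest array of their group and all were replicates 1 or 2, which belong to the low spike-in class. In Stage I these were AT3G01190 at 98.2 on replicate 2, AT3G21770 at 131 on replicate 2 and AT5G39580 at 98.6 on replicate 1. In Stage II they were PRX72 (AT5G66390) at 37.3 on replicate 1, AT5G64100 at 203 on replicate 1 and AT5G40150 at 90.1 on replicate 2. In Stage III they were AT4G36430 at 501 and PRX71 (AT5G64120) at 194, both on replicate 1.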

How the results depend on the processing

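Alternatives were 2 other pseudocounts, a filter on dim probe sets, quantile normalization, the spike-in class as a block or each class alone, the Columbia lines alone, the replicate number as a block, and leaving out each array. For the lines, J3411 replicate 3 and SCR replicate 1 were also left out together, a fit chosen after seeing the data. Of the calls of named genes repeated under all of these, 2108 passed again with the same direction, 197 no longer passed and 0 turned round. Named genes were mostly chosen for their calls, and most of these fits differ from the main fit by 1 array, so the tally is no independent support. Outside the named genes, AT2G39040 turned to 0.21 in SCR under a spike-in block. The number of genes called moved by over 1.5 times in SCR under that block (3) or on the high class alone (3), in J0571 among Columbia lines (12), and for Stage II over Stage I on the low class alone (5). Without J3411 replicate 3 and SCR replicate 1 it moved in WOL (17) and J0571 (8). The cause was not tested. Leaving out 1 array gave 14 to 23 calls in GL2 (7.06% to 15.7% of all probe sets) and 7 to 13 in J3411 (5.08% to 13.4%). It gave 13 to 22 in SCR (7.69% to 22.4%), 2 to 5 in J0571 (1.79% to 6.07%) and 7 to 13 in WOL (3.25% to 8.95%). Between stages it gave 9 to 13 for Stage II over Stage I (15.4% to 21.7%). For Stage III it gave 16 to 24 over Stage II (26.3% to 31.2%) and 19 to 23 over Stage I (39.8% to 42.9%). With the replicate number as a block the counts were 17 in GL2 (11.2% of all probe sets), 10 in J3411 (9.28%) and 18 in SCR (15.6%). They were 4 in J0571 (3.77%) and 8 in WOL (5.62%). In the same stage order they were 13 (26.1% of all probe sets), 25 (36.5%) and 23 (47.6%). With the spike-in class as the block instead, the stage counts were 14 (26% of all probe sets), 24 (36.4%) and 24 (47.5%). Between lines, same-numbered arrays correlated at -0.22 to 0.12, over 0.1 in 2 of 30 pairs, so the numbers were not taken as pairing there. Between stages the block changed no other call of Stage II over I or III over II than those named above. Signals near 14.8 limit folds of dim genes to lower bounds.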
